A study of Homo sapiens with 2 samples.

Results

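The ERBB family consists of 4 receptor genes, EGFR, ERBB2, ERBB3 and ERBB4, and their transcript levels were described here together with those of 6 genes for ligands, AREG, EREG, TGFA, HBEGF, BTC and NRG1. The members were chosen by gene symbol and matched through their Ensembl identifiers. All 10 were found among the 57820 genes of the table, and all 10 also stand in the second table of the series with the same exon length. The levels come from T47D cells, an established luminal line of human breast cancer that makes estrogen receptor. The cells carried ESR1 Y537S, a change in estrogen receptor alpha known to keep the receptor active without hormone, and received a control siRNA at 25 nM while kept in medium deprived of hormone. There were 2 replicate libraries of this 1 group, so no condition was compared with another. The table's columns name the line, the receptor residue and the replicate number but not the siRNA, so the treatment is that of the labelled samples these names match. The sources used here do not give how the mutation was introduced or whether the line is 1 clone.

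ERBB proteins are receptor tyrosine kinases that signal in pairs once a ligand is bound. AREG, EREG, TGFA, HBEGF and BTC encode ligands of EGFR, some of which also bind ERBB4, and NRG1 encodes a ligand of ERBB3 and ERBB4. ERBB2 has no known ligand and acts as a partner for the others, while the kinase of ERBB3 is weak and ERBB3 signals largely through its partners. In the breast these receptors direct growth of the ducts and milk-forming differentiation, and ERBB2 is a drug target where the gene is amplified.

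Reads counted on genes numbered 41370662 in replicate 1 and 37198274 in replicate 2. The luminal identity was checked with markers of 6 cell classes. All 8 luminal markers were detected, with a median of 83.6 ± 5.73 TPM (SD, n = 2), where TPM scales reads to exon length and library size. None of the 4 basal, 3 mesenchymal, 3 immune or 3 endothelial markers was detected, although 85.8% of the exon bases of CD68, an immune marker, lie in other rows too, so that its 0 reads could not be read as a level. Of 3 fibroblast markers COL1A1 was detected, at 1.11 ± 0.0783 TPM. A gene was called detected when each library reached 1 CPM, a count scaled to the library's total. The basal marker TP63 had 1.47 CPM in replicate 1 and 0.806 CPM in replicate 2, so it passed in replicate 1 alone. The p-values and intervals below measure counting error alone. The SDs and spread limits measure differences between these libraries, which may be technical because the labels do not say that they came from separate cultures.

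Of the 10 members 8 were detected, against 60.9% of all 19263 protein-coding genes. In TPM the receptors were led by ERBB3 and the ligands by AREG, while in CPM, which does not divide by length, TGFA stood above AREG. EREG and NRG1 were the members not detected. In these bulk libraries a lower level in every cell and a smaller share of cells with the transcript cannot be told apart.

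**Figure D1:**
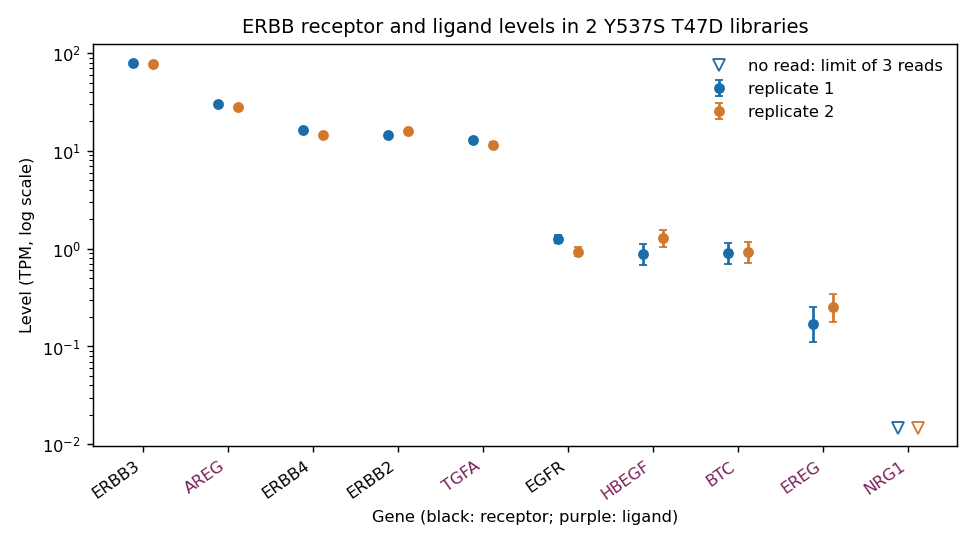
Level in TPM on a log axis of each receptor (black name) and ligand (purple name) in replicate 1 (blue) and replicate 2 (orange), with 95% counting intervals as bars; open triangles mark the limit that 3 reads set where no read was found. ERBB3 sits highest near 78.4 TPM, 4 genes lie between 11.6 and 30.2 TPM, 3 lie near 1 TPM, and EREG and NRG1 lie below.

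ERBB3 (ENSG00000065361.10, hg19 chromosome 12, 56473641 to 56497289, plus strand) encodes the receptor that couples well to PI3-kinase. It had 18224 reads in replicate 1 and 17744 in replicate 2, which gave 79.5 TPM (95% counting interval 78.3 to 80.7) and 77.4 TPM (76.2 to 78.5). These lay above 96.5% and 97.0% of protein-coding genes, and ERBB3 was the highest member in both libraries.

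ERBB4 (ENSG00000178568.9, chromosome 2, 212240446 to 213403565, minus strand), a receptor for neuregulins and for some EGFR ligands, had 16.4 TPM in replicate 1 and 14.5 TPM in replicate 2. ERBB2 (ENSG00000141736.9, chromosome 17, 37844167 to 37886679, plus strand) had 14.6 TPM in replicate 1 and 15.9 TPM in replicate 2. The libraries thus put these receptors in opposite order. Their exact counting intervals exclude equality in each library, with an ERBB4 to ERBB2 ratio of 1.12 (1.08 to 1.17) in replicate 1 and 0.911 (0.875 to 0.949) in replicate 2, so the order in TPM rests on the library. In CPM ERBB4 stood above ERBB2 in both libraries, at 136 against 96.4 in replicate 1 and 135 against 117 in replicate 2.

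EGFR (ENSG00000146648.11, chromosome 7, 55086714 to 55324313, plus strand), the receptor for AREG, EREG, TGFA, HBEGF and BTC, was the lowest receptor. It had 430 reads, or 1.25 TPM (1.14 to 1.38), in replicate 1 and 321 reads, or 0.934 TPM (0.835 to 1.04), in replicate 2. These levels lay above 45.0% and 43.3% of protein-coding genes. ERBB2 stood 14.1-fold and ERBB4 14.2-fold above it (log2 ratios 3.82 ± 0.39 and 3.83 ± 0.18, SD, n = 2).

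Of the 6 receptor pairs 5 differed in TPM by more than the replicate spread, all but ERBB2 and ERBB4. A pair was called when equality lay outside its counting interval on the same side in each library and its mean log2 ratio exceeded the 95th percentile of differences between the libraries for genes of the lower partner's CPM class. ERBB3 exceeded ERBB2 5.15-fold (log2 ratio 2.36 ± 0.12) and ERBB4 5.09-fold (2.35 ± 0.093). By share of the summed receptor TPM, ERBB3 made up 71.2% ± 0.0303, ERBB4 14.0% ± 0.912, ERBB2 13.9% ± 1.13 and EGFR 0.990% ± 0.185. The share of ERBB3 was 64.6% when CPM took the place of TPM. In CPM all 6 pairs were called, with ERBB4 above ERBB2 at a log2 ratio of 0.35 against a limit of 0.28.

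Among the ligands, AREG and TGFA held most of the signal. AREG (ENSG00000109321.6, chromosome 4, 75310851 to 75320726, plus strand) encodes amphiregulin, known as an estrogen-responsive ligand needed for duct growth in the mouse mammary gland. It had 1321 reads, or 30.2 TPM (28.6 to 31.9), in replicate 1 and 1224 reads, or 28.0 TPM (26.5 to 29.6), in replicate 2. TGFA (ENSG00000163235.11, chromosome 2, 70674412 to 70781325, minus strand), the gene of transforming growth factor alpha, had 12.9 TPM in replicate 1 and 11.6 TPM in replicate 2.

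AREG made up 66.8% ± 0.303 of the summed TPM of the 6 ligands, and TGFA made up 28.1% ± 0.768. AREG has only 1648 exon bases, against 4963 for TGFA. In CPM, where length is not divided out, AREG had 32.4 ± 0.689 and TGFA 41.1 ± 0.0617, and the share of AREG was 41.4%. The order of the ligands at the top therefore turns with the scale.

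**Figure D2:**
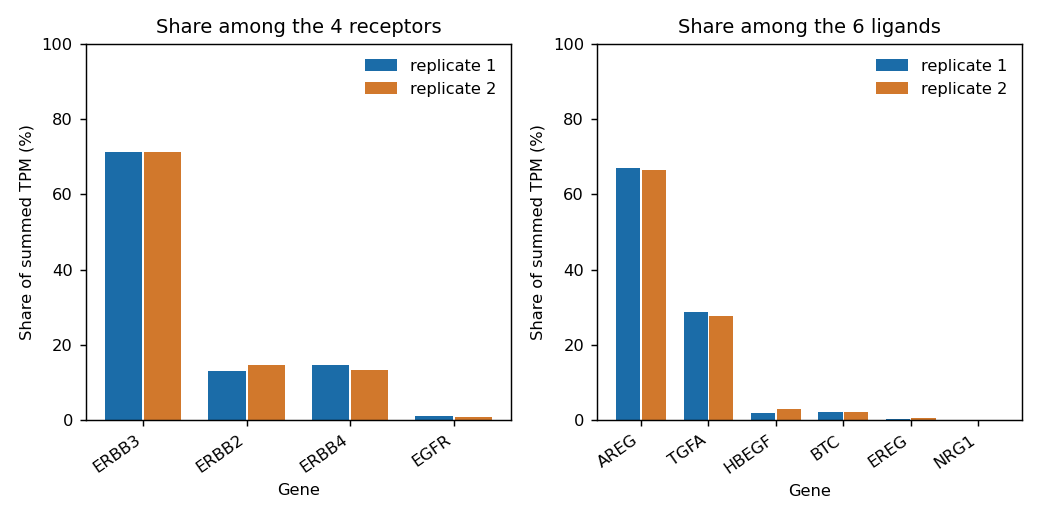
Share of the summed TPM (percent) held by each of the 4 receptors (left panel) and each of the 6 ligands (right panel), with replicate 1 in blue and replicate 2 in orange. ERBB3 holds about 71.2% of the receptor sum and AREG about 66.8% of the ligand sum, and ERBB2 and ERBB4 swap their order between the libraries.

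HBEGF (ENSG00000113070.6, chromosome 5, 139712428 to 139726216, minus strand), the gene of heparin-binding EGF-like growth factor, had 70 reads, or 0.875 TPM (0.682 to 1.11), in replicate 1 and 102 reads, or 1.27 TPM (1.04 to 1.55), in replicate 2. BTC (ENSG00000174808.7, chromosome 4, 75669969 to 75719896, minus strand), the gene of betacellulin, had 67 and 69 reads, or 0.898 TPM (0.696 to 1.14) and 0.924 TPM (0.719 to 1.17). At 2 CPM in place of 1 CPM, neither passed in both libraries. In TPM both lay in the same range as EGFR, their receptor. In CPM EGFR stood above them, at 9.51 ± 1.25 against 2.22 ± 0.742 for HBEGF and 1.74 ± 0.166 for BTC.

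EREG (ENSG00000124882.3, chromosome 4, 75230860 to 75254468, plus strand), the gene of epiregulin, had 26 reads, or 0.172 TPM (0.112 to 0.251), in replicate 1 and 38 reads, or 0.251 TPM (0.177 to 0.344), in replicate 2. It reached 0.628 and 1.02 CPM, so it passed the threshold in replicate 2 alone. NRG1 (ENSG00000157168.14, chromosome 8, 31496902 to 32622548, plus strand) had no read in either library. With 3 reads as the limit of a count of 0, that allows up to 0.0148 TPM in each library by counting error alone. Libraries can differ by more. Without a read in replicate 1, 359 genes had 5 to 28 reads in replicate 2. The reverse held for 454 genes, with 5 to 22 reads in replicate 1.

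In the order of levels, from ERBB3 through AREG, ERBB4, ERBB2, TGFA, EGFR, HBEGF, BTC and EREG to NRG1, 4 of 9 neighbouring pairs differed by more than the replicate spread. These were ERBB3 above AREG (2.69-fold, log2 ratio 1.43 ± 0.051), AREG above ERBB4 (1.89-fold, 0.92 ± 0.043), TGFA above EGFR (11.3-fold, 3.50 ± 0.19) and EREG above NRG1. Taking 3 reads per library for NRG1, the ratio of EREG to it was 11.6 (95% counting interval 3.56 to 59.9) in replicate 1. In replicate 2 it was 17.0 (5.38 to 85.9). The order of AREG and ERBB4 turned in CPM, with a log2 ratio of -2.06.

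In TPM, ERBB4 and ERBB2, ERBB2 and TGFA, EGFR and HBEGF, and HBEGF and BTC did not differ beyond the spread. BTC and EREG did not pass either, at a log2 ratio of 2.13 ± 0.36, because genes below 1 CPM differed by up to 3.34 between the libraries at that percentile. Their counting intervals excluded equality in both libraries, with ratios of 5.23 (3.28 to 8.57) and 3.69 (2.45 to 5.63). With genes between 0.5 and 1 CPM alone, a choice made after seeing the data, the limit was 1.46 and the pair passed. When levels were compared in CPM, ERBB4 to ERBB2, ERBB2 to TGFA and EGFR to HBEGF passed, at log2 ratios of 0.35, 1.37 and 2.14.

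The summed TPM of the receptors was 110 ± 2.08 and that of the 6 ligands 43.6 ± 2.17. Receptor transcripts thus exceeded those of these 6 ligands 2.47-fold in replicate 1 and 2.58-fold in replicate 2. In CPM these ratios were 8.87 and 9.26, a comparison added after seeing the data. AREG exceeded its receptor gene EGFR 26.9-fold in TPM (log2 ratio 4.75 ± 0.22), and the log2 ratio in CPM was 1.78. For ERBB3 and ERBB4 no read of the neuregulin NRG1 was found.

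The 5 remaining annotated ligand genes had lower levels than AREG and TGFA. EGF, the founding ligand of the family, had 4.01 and 3.05 TPM in replicates 1 and 2, and EPGN, the gene of epigen, had 3.14 and 1.93 TPM. NRG4, the gene of an ERBB4 ligand, had 1.01 and 0.825 TPM. NRG2 had 0 and 5 reads and NRG3 had 1 and 0 reads, so of the 4 neuregulin genes NRG4 was the one detected. TGFA exceeded EGF 3.50-fold (log2 ratio 1.81 ± 0.17). With these 5 genes counted in, AREG made up 57.6% ± 1.21 of the summed ligand TPM.

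AREG, EREG, BTC and EPGN lie in 1 stretch of 546 kb on chromosome 4, yet their levels spread widely. AREG exceeded EREG, whose gene ends 56.4 kb before it, 140-fold (log2 ratio 7.13 ± 0.46). It exceeded BTC, 349 kb beyond it, 32.0-fold (5.00 ± 0.11), and EPGN 11.8-fold (3.56 ± 0.42). EPGN stood 11.9-fold above EREG (3.57 ± 0.88), from which 49.8 kb separate it. All 4 of these ratios exceeded the replicate spread, that of EPGN to EREG narrowly, against a limit of 3.34. In CPM the log2 ratio of EPGN to EREG was 1.91, inside that limit. Those of AREG to EREG, BTC and EPGN were 5.34, 4.23 and 3.42 in CPM, past their limits.

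The promoters of the 3 member genes of this stretch are shown because their levels differ so much at close range. Each is the 250 bases before the RefSeq start in GRCh38.p14, on the gene's strand, and capitals mark motif matches. The AREG promoter covers chr4:74444886-74445135 on the plus strand, that of EREG chr4:74364895-74365144 on the plus strand and that of BTC chr4:74794524-74794773 on the minus strand.
AREG: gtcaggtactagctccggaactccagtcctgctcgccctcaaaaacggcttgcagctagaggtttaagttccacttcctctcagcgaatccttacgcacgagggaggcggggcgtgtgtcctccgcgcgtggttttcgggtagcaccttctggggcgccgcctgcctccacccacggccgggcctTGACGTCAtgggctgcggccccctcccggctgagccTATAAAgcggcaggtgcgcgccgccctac
EREG: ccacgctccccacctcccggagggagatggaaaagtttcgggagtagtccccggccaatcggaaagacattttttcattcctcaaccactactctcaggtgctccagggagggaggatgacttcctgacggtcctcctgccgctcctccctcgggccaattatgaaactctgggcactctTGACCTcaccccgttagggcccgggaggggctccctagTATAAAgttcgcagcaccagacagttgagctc
BTC: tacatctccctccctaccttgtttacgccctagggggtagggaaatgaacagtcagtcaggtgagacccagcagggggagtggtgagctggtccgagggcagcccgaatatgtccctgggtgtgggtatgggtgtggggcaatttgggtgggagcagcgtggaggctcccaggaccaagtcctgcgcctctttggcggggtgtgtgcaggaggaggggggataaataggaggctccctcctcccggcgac

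Promoter entries matched 8 members, not ERBB3 and NRG1. 4 motifs were searched on both strands, and the matches found do not overlap, although the half-site below is part of the full estrogen response element. The TATA box letters TATAAA stand in AREG and EREG, their first base 29 and 32 bases before the start. These letters occur in 10.7% of all 35116 promoters of this length, and among the members a promoter of EGFR also holds them. The cyclic AMP response element TGACGTCA, a site of CREB family factors, stands 65 bases before the start of AREG and in 1.65% of all promoters. The estrogen response element half-site AGGTCA stands once in EREG, on the opposite strand as TGACCT, and in 12.1% of all promoters. The full estrogen response element stands in 0.0399% of all promoters and in none of these 8. BTC holds none of the 4 motifs in this window. These matches describe letters, and no binding was measured.

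AREG has a partner row in the annotation that limits its value. A row without a name in the tables used (ENSG00000205595.3, hg19 chromosome 4, 75480629 to 75490486) lies 160 kb beyond AREG, has 1647 exon bases in 6 exon blocks like AREG, and 4 of these blocks have the same length. It had 13 and 10 reads in replicates 1 and 2. Reads that fit both places are dropped by the counter's default, so AREG may be underestimated, and the size of this effect was not tested.

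ERBB2 lies in the part of chromosome 17 that is gained in ERBB2-amplified tumours, and its neighbours were therefore read beside it. Of 13 listed genes of this region 9 were detected, against 60.9% of all protein-coding genes. The 13 had a median of 7.20 ± 0.722 TPM, against 2.31 ± 0.165 TPM over all protein-coding genes. 3 of them had levels close to that of ERBB2. STARD3, the gene of a cholesterol-binding endosomal protein, had 13.0 ± 0.0466 TPM, CDK12, a kinase gene of transcription elongation, 15.1 ± 1.27 TPM, and MIEN1 16.6 ± 0.111 TPM. Over full exon lengths none of these differed from ERBB2 by more than the replicate spread. The log2 ratios of ERBB2 to them were 0.23 ± 0.096, 0.011 ± 0.21 and -0.12 ± 0.10. However, 24.9% of the exon bases of MIEN1 lie in other rows too, 571 of these bases in ERBB2. Its level may therefore be underestimated. ERBB2 shares a smaller part, 7.41%, so leaving shared bases out would move the ratio of ERBB2 to MIEN1 further below equality. Whether that ratio then passes the limit was not tested. For STARD3 the counting intervals excluded equality in both libraries, with ERBB2 to STARD3 ratios of 1.12 (1.06 to 1.18) and 1.23 (1.16 to 1.30).

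GRB7, an adaptor gene that is co-amplified with ERBB2 in tumours, had 7.71 TPM in replicate 1 and 6.69 TPM in replicate 2. ERBB2 exceeded it 2.12-fold (log2 ratio 1.09 ± 0.24) and exceeded PGAP3 1.53-fold (0.61 ± 0.16), both beyond the spread. The highest genes of the region were ORMDL3 with 37.2 ± 2.87 and the mediator subunit gene MED1 with 25.7 ± 2.87 TPM. NEUROD2, TCAP, PNMT and IKZF3, genes known from nerve, muscle, adrenal and lymphoid cells, were not detected.

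**Figure D3:**
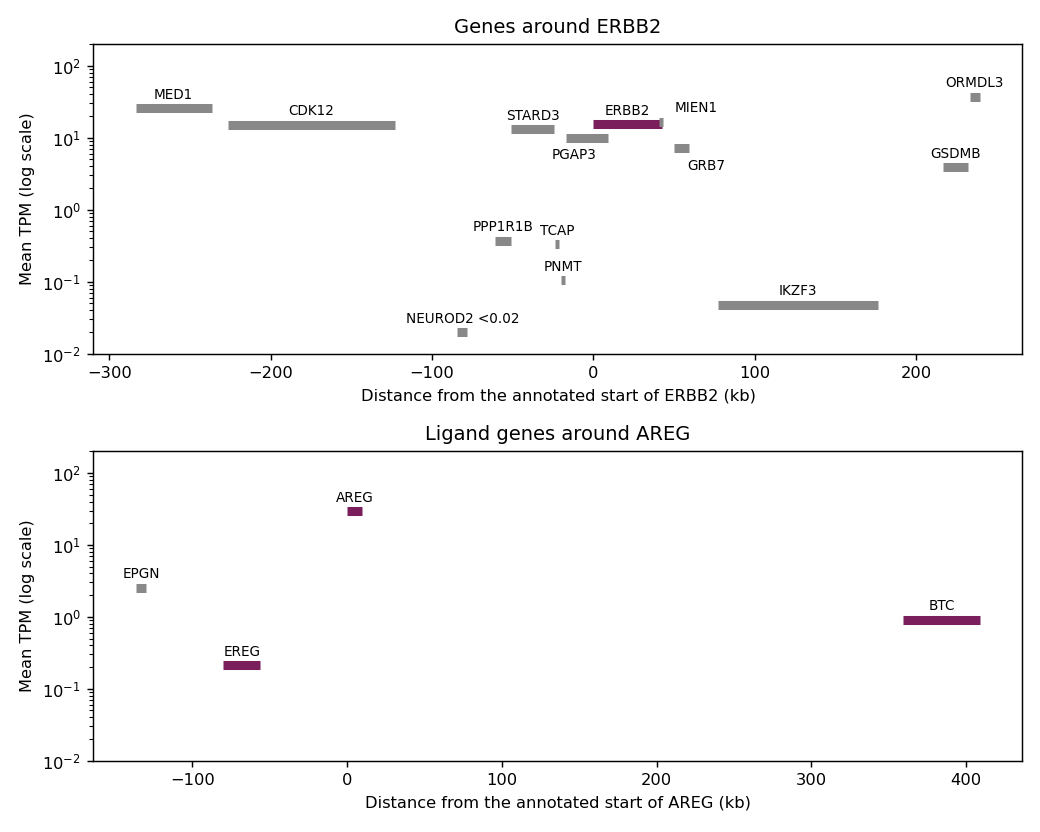
Mean TPM of the 2 libraries (log axis) against distance in kb from the annotated start of ERBB2 (upper panel) and of AREG (lower panel); each bar spans a gene, purple for members of the ERBB set and grey for others, and NEUROD2 lies below where it is drawn. ERBB2 lies close to CDK12, STARD3 and MIEN1, of which MIEN1 may be underestimated, whereas AREG stands 140-fold above EREG.

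Exon overlap touched ERBB2 most among the members. PGAP3 and MIEN1, on the opposite strand, cover 765 of its 10321 exon bases (7.41%). EGFR shares 186 bases (1.44%) with the antisense gene EGFR-AS1, which had 9 and 6 reads, and ERBB3 shares 31 bases (0.358%) with an overlapping row without reads. The other 7 members share no exon base with another row. No strand option was recorded for the counting, and by the counter's default reads in shared bases are not assigned.

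For each gene the libraries were set against each other by an exact binomial test, two-sided, at TMM-scaled library sizes, with Benjamini-Hochberg adjustment over 14668 genes. Of the 8 members tested, 3 were called, all higher in replicate 2. Over all genes 40% were called in either direction, 20.8% as higher in replicate 1 and 19.2% as higher in replicate 2, and the members' count is close to the share called in either direction. ERBB2 had a log2 difference of -0.30 between replicate 1 and replicate 2 (adjusted p = 5.42e-20), ERBB3 of -0.14 (adjusted p = 2.52e-17) and HBEGF of -0.71 (adjusted p = 0.00497), by the exact binomial test. EGFR lay the other way at 0.25 (adjusted p = 0.0525, exact binomial test). For ERBB3 the order of the libraries turned with the scale. It had 79.5 TPM in replicate 1 and 77.4 TPM in replicate 2, but 441 and 477 CPM. The TPM of AREG, TGFA and ERBB4 was also higher in replicate 1, although their TMM-scaled differences were negative. TPM differences between the libraries therefore depend on the scale.

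The test sets these libraries against counting error alone, so each difference was also read against genes of the same CPM class. ERBB2 lay just past the 95th percentile of its class, which was 0.28, as did 5.02% of all genes tested. With total counts in place of TMM its difference was 0.28 and the percentile 0.29, so it lay just inside, and the TMM scaling of this percentile was taken up after its values were seen. ERBB3 and HBEGF lay inside, above 70.1% and 93.3% of the genes of their classes. PGAP3, which overlaps ERBB2 on the other strand, was also higher in replicate 2 (log2 difference -0.53), and whether the overlap plays a part was not tested. AREG, TGFA, ERBB4 and BTC had differences between -0.22 and -0.0031, with adjusted p between 0.395 and 0.953 by the exact binomial test.

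**Figure D4:**
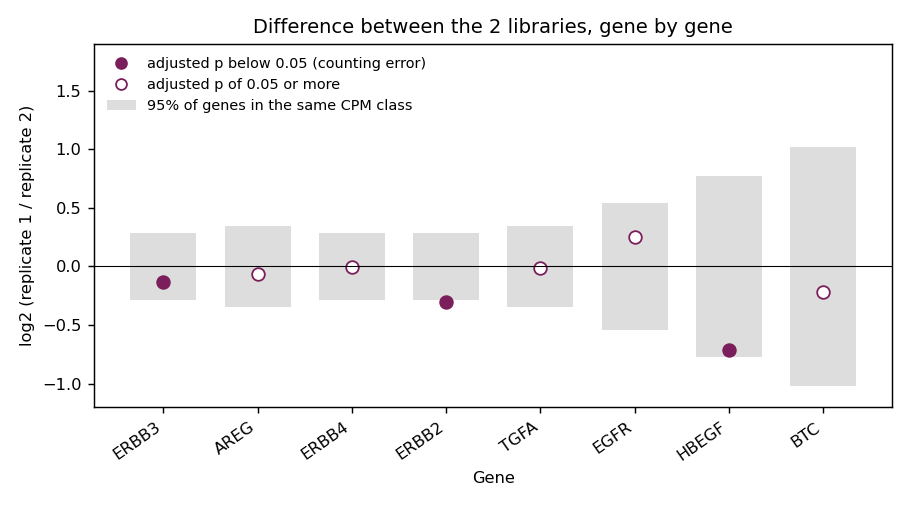
log2 ratio of replicate 1 to replicate 2 (TMM-scaled) for the 8 members tested; filled points have an adjusted p below 0.05 by the exact binomial test against counting error, open points do not, and grey bars span the range that holds 95% of genes in the same CPM class. ERBB2 at -0.30 lies just outside its bar and the other 7 lie inside.

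Most genes through which ERBB receptors act were detected. Across 9 lists with 95 different genes, the other ligands and the ERBB2 region included, 82 were detected. The median of the 95 was 12.7 ± 0.916 TPM. Over all protein-coding genes 60.9% were detected, and the list counts below are to be read beside that share. All 11 adaptors and proximal enzymes were detected, with a median of 19.5 ± 1.14 TPM. PTPN11, the gene of the phosphatase SHP2 that carries signals on to RAS, led with 92.5 ± 13.1 TPM, followed by the adaptors SHC1 with 46.1 ± 2.17 and CRK with 40.9 ± 6.01 TPM. GRB2, which links receptors to RAS activation, had 31.7 ± 2.89 TPM. This may be an underestimate, because 26.5% of its exon bases lie in other rows too.

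The RAS-MAPK cascade had all of its 10 genes detected and a median of 22.5 ± 1.81 TPM. The kinase gene ARAF had 30.5 ± 0.768 TPM and the GTPase gene HRAS 28.4 ± 0.55 TPM. Of 13 genes of the PI3K-AKT arm 11 were detected, and the list had a median of 10.4 ± 2.04 TPM. The kinase gene AKT1 had 38.6 ± 1.22 TPM and the catalytic subunit gene PIK3CA 18.2 ± 4.03 TPM. PIK3R2 had 2 and 0 reads, but 87.2% of its exon bases lie in other rows too, so its level could not be read.

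Negative regulators were detected in 19 of 20 cases, with a median of 8.89 ± 0.669 TPM. RNF41, the gene of a ubiquitin ligase that lowers ERBB3, led with 36.3 ± 2.38 TPM, followed by the phosphatase genes PTPN1 with 35.1 ± 1.17 and DUSP4 with 30.5 ± 1.85 TPM. LRIG1, which restrains ERBB receptors, had 25.9 ± 1.68 TPM, and ERRFI1, a feedback inhibitor of EGFR, 13.9 ± 0.307 TPM. SPRED3 was not detected.

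Of the 10 genes for ligand release 8 were detected, with a median of 11.9 ± 0.883 TPM. The metalloprotease genes ADAM15 with 92.1 ± 6.82 and ADAM9 with 73.1 ± 4.43 TPM had higher levels than ADAM10 with 16.1 ± 2.67 and ADAM17 with 10.0 ± 0.588 TPM, the main sheddases of EGFR ligands. However, 24.1% of the exon bases of ADAM17 lie in other rows too, so its level may be underestimated. RHBDF1, an ADAM17 cofactor gene, had 15.7 ± 0.616 TPM, and ADAM12 and ADAM19 were not detected.

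Receptor chaperones and partners were detected in 6 of 7 cases, with a median of 34.5 ± 0.401 TPM. The HSP90 genes HSP90AB1 with 820 ± 86.1 and HSP90AA1 with 399 ± 49.2 TPM and the cochaperone gene CDC37 with 55.7 ± 5.69 TPM, which help to stabilise ERBB2, were highest. The mucin gene MUC4, whose product binds ERBB2, was not detected. Transcription factors linked to ERBB genes were detected in 6 of 7 cases and had a median of 37.2 ± 0.984 TPM. FOXA1 with 82.1 ± 0.325, GATA3 with 63.8 ± 3.10 and ZNF217 with 57.7 ± 9.09 TPM led, and TFAP2C, an activator of ERBB2, had 37.2 ± 0.984 TPM. PAX2 was not detected.

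**Figure D5:**
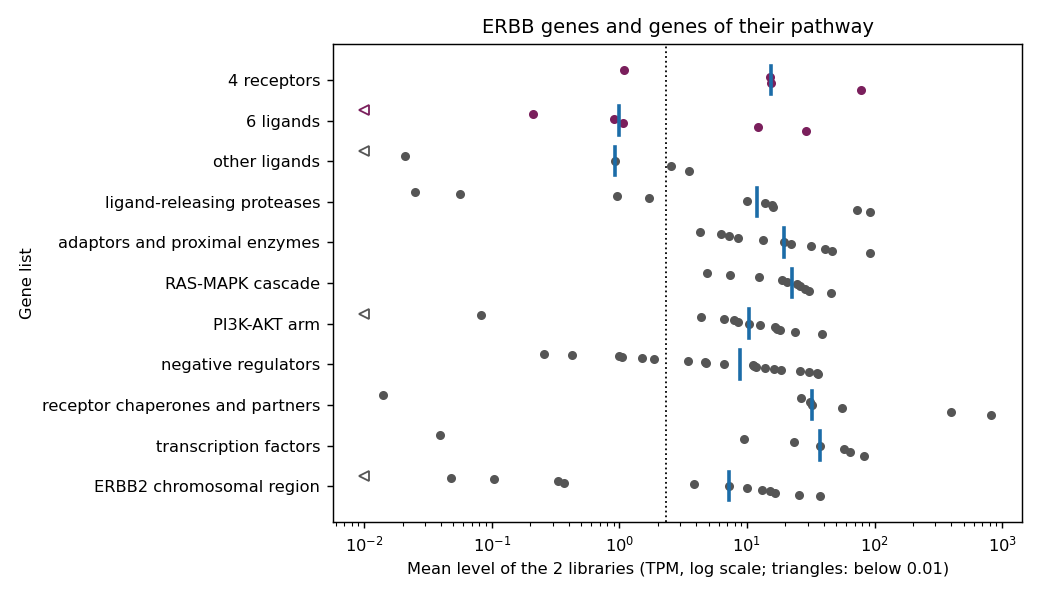
Mean TPM of the 2 libraries (log axis) for the receptors and ligands (purple) and for the genes of 9 lists of the pathway (grey), with 1 point per gene, blue lines at the medians of these means, triangles for levels below 0.01 TPM and a dotted line at the median of all protein-coding genes, 2.31 TPM. The 10 RAS-MAPK genes and the 11 adaptors all lie right of the dotted line, whereas 4 of the 6 ligands lie left of it.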

How the data were processed

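The deposited values are whole-number counts of each gene's exons (GENCODE release 19), made by the authors with featureCounts 2.0.2 and no recorded strand, paired-end, multimapping or overlap option, per the file headers. HISAT2 and hg19 are named in the submitters' processing notes. Gene length, unit bases, is the deposited summed exon length; the second table (Ensembl release 87) gave identifiers and lengths alone. Another 8 columns of per-sample values match no sample described here and were not used.

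From the counts, CPM and TPM were computed over all 57820 genes. Symbols matched 51996 identifiers (89.9%), and gene types came from GENCODE release 29. Intervals are exact Poisson (levels) or exact conditional binomial (ratios) at 95%; a count of 0 was given a limit of 3 reads in each library, and both cover counting error only. TMM factors came from edgeR 4.0.16, size factors from DESeq2 1.42.0, exact tests from scipy 1.17.1, with 0.5 reads added for log2 differences. Members and lists were chosen with earlier results of these data known. Named were all members, the 3 highest and the undetected genes of each list, partners in named pairs and the nearest protein-coding neighbours; other genes were named after their values were seen. Some genes that this rule names are not reported here. A protein comparison was not made here.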

Additional observations from a re-analysis of the deposited data

How the results depend on the processing

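The count of detected members was 8, and 6 to 9 under thresholds of 2 and 0.5 CPM and from single libraries. Pairs beyond the spread in the same direction as in TPM numbered 5 or 6 among receptors and 4 to 6 among neighbours under the alternatives run. In CPM the pair AREG and ERBB4 was also past it, in the other direction. With CPM in place of TPM, the ERBB3 share of receptors was 64.6% and the AREG share of ligands 41.4%. The log2 ratio of AREG to ERBB4 turned to -2.06 in CPM. Summed receptors exceeded the 6 summed ligands by a mean ratio of 9.07 in CPM, against 2.53 in TPM. Leaving out exon bases shared with other rows gave an ERBB3 share of 70.4% and turned the log2 ratio of ERBB4 to ERBB2 to -0.095 (0.095 as ERBB2 to ERBB4). From single libraries the ERBB3 share was 71.1% to 71.2% and the AREG share 66.6% to 67.0%. Scaling TPM over nuclear protein-coding genes alone raised levels 3.35-fold in replicate 1 and 3.78-fold in replicate 2. ERBB3 then had a mean of 280 TPM, AREG 104 and EGFR 3.87, against 78.4, 29.1 and 1.09 over all genes. Ratios and shares between genes of the same library do not change with this scaling.

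Leaving out a replicate turned small log2 ratios that were not called: ERBB4 to ERBB2 was -0.13 and EGFR to HBEGF -0.45 without replicate 1, against 0.17 and 0.52 without replicate 2, and HBEGF to BTC was -0.037 without replicate 2 and 0.46 without replicate 1. The same values as ERBB2 to ERBB4 were 0.13 and -0.17. ERBB2 to TGFA passed at 0.46 without replicate 1 and at 0.42 without shared bases. Between the libraries, ERBB4 differed by 0.010 with DESeq2 size factors and 0.017 with total counts, and TGFA by 0.0030 with total counts, all opposite in sign to the TMM values. EGFR passed the test between libraries with DESeq2 size factors (0.26) and total counts (0.27), so 4 members were then called. ERBB2 (-0.30) lay inside the spread with total counts (-0.28), a choice added after seeing the data. Causes of these changes beyond the altered length or library were not tested. No paired analysis was possible because there was 1 group. Depth limits EREG, HBEGF and BTC, whose 26 to 102 reads leave wide intervals.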

Other observations

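The nearest protein-coding genes of the members that lie outside the regions described above showed no common level. ERBB3 is flanked by the ribosomal protein gene RPS26 with 170 ± 12.0 TPM. NRG1, without a read, lies between the DNA helicase gene WRN with 8.67 ± 1.02 TPM and the fucosyltransferase gene FUT10 with 5.34 ± 0.892 TPM, so its flanks carried reads. EGFR lies between SEC61G, a subunit gene of the protein translocation channel, with 55.2 ± 8.26 TPM, and LANCL2 with 5.99 ± 0.318 TPM. ERBB4 lies between CPS1, a urea cycle gene that was not detected, and IKZF2 with 4.46 ± 0.31 TPM. TGFA lies between FAM136A with 18.6 ± 2.14 TPM and ADD2, which had 2 and 0 reads. HBEGF lies between the prefoldin gene PFDN1 with 43.3 ± 0.304 TPM and SLC4A9, which was not detected.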
